A study of Mus musculus with 15 samples.

Results

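The ParaHox cluster is the stretch of mouse chromosome 5 that carries the homeobox genes Gsx1, Pdx1 and Cdx2. All intervals of 3 deposited interval lists that overlapped 147.95 to 148.25 Mb of chromosome 5 in build mm9 were taken, which gave 5 of 902 EZH2 intervals, 2 of 438 FLAG intervals and 4 of 1126 H3K27me3 intervals, 11 of 2466 in all. The locus was chosen by its intervals in these same lists, so what follows describes the locus and makes no test. The lists come from chromatin immunoprecipitation with sequencing of mouse embryonic fibroblasts that carry floxed EED and stably express wild-type EZHIP from a lentivirus. The 3 libraries share this genotype and differ in the antibody (EZH2, FLAG or H3K27me3), and no list from cells without EZHIP was used. The H3K27me3 list is named residual H3K27me3 by its depositors, and H3K27me3 intervals below are those of that list. The series has 15 libraries in 15 groups of 1, and the other 12 (with DMSO, with tazemetostat, with EED knocked out in a line grown from a single clone, or with EZHIP M406E) were not analysed here. FLAG was read as the tag on EZHIP because the series profiles EZHIP and no antibody to it is listed. With 1 library per antibody there is no replicate error, and with positions only there is no peak height or read depth. A list of intervals carries no expression markers, so the fibroblast label was not checked.

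ParaHox genes are the evolutionary sister group of the Hox genes and encode homeodomain transcription factors. Gsx1 patterns neural progenitors of the forebrain and spinal cord, Pdx1 is required for the pancreas and acts in insulin-producing cells, and Cdx2 directs intestinal identity and the trophectoderm of the early embryo. PRC2, whose catalytic subunit is EZH2, places H3K27me3 on such lineage genes in cells of other types, and EED binds H3K27me3 and stimulates the enzyme. EZHIP is a protein inhibitor of PRC2.

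The promoters of the 3 genes are shown because the EZH2 intervals below lay at the genes' approximate positions. The sequences are the 250 bases before each gene's start, 5′ to 3′ in the direction of the gene, from RefSeq on GRCm38.p6, with each CpG dinucleotide in capitals. Gsx1 lies on the plus strand (chr5:147188446-147188695), Pdx1 on the plus strand (chr5:147269847-147270096) and Cdx2 on the minus strand (chr5:147307250-147307499). These positions belong to GRCm38.p6 and cannot be set against the mm9 positions used in the rest of the text.
Gsx1: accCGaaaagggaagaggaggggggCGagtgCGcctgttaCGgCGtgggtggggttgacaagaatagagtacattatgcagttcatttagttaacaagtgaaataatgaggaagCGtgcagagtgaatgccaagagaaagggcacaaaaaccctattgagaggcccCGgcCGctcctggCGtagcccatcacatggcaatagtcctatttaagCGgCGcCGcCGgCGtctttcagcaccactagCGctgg
Pdx1: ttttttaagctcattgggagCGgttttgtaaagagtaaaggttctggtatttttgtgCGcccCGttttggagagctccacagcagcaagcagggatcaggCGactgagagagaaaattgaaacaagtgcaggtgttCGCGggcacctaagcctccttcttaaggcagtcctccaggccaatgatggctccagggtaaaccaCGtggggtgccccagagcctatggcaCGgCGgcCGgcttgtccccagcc
Cdx2: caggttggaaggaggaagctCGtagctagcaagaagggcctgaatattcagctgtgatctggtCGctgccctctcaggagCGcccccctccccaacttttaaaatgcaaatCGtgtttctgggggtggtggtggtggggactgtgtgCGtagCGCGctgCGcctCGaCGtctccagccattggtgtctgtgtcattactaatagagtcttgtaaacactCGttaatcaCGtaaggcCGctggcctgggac

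The letters CG, which read the same on both strands, occurred 15 times in the Gsx1 sequence, 13 times in that of Cdx2 and 10 times in that of Pdx1. Of 32841 promoters of the same length in the RefSeq table, 92.1% held at least 1 CpG, the median was 6 and the upper quartile 16. The number of CpGs relative to that predicted from the C and G content was 0.85 for Gsx1, 0.69 for Cdx2 and 0.54 for Pdx1, against a median of 0.37 over all promoters. In CpG number all 3 were above the median and below the upper quartile. By the ratio, 84.6% of promoters were lower than Gsx1, 72.5% lower than Cdx2 and 61.9% lower than Pdx1. Among the 6 neighbouring genes looked up, Lnx2 had 27 CpGs, Flt1 and Pan3 had 23 each, Flt3 had 13, Urad had 8 and Polr1d had 5. The member promoters therefore lay within the range of their neighbours.

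Gsx1 carried all 3 signals in nested order. The EZH2 interval at chr5:147992801-148008799 was 15999 bp wide, and the position of Gsx1 near 148.00 Mb lay 7.2 kb from its left edge. Gene positions were given to the nearest 10 kb with the definition of the locus, and annotation of mm9 was not used here, so exons, introns and start sites were not assigned. The FLAG interval (chr5:147996201-148006399) was 10199 bp wide and the H3K27me3 interval (chr5:147994201-148008599) was 14399 bp wide, and both held that position. FLAG lay wholly within H3K27me3, which lay wholly within EZH2. EZH2 reached 3400 bp beyond FLAG on the left and 2400 bp on the right. H3K27me3 stopped 1400 bp inside the left EZH2 edge and 200 bp inside the right one, the latter a single step of the 200 bp grid on which all interval edges lie.

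Pdx1 had EZH2 and H3K27me3 but no FLAG interval. The EZH2 interval at chr5:148078001-148092399 was 14399 bp wide and held the position of Pdx1 near 148.08 Mb, 2.0 kb from its left edge. H3K27me3 covered 100% of it. The nearest FLAG interval began 18401 bp to the right. The Pdx1 interval was wide for an EZH2 interval without FLAG, since 83 other EZH2 intervals in the list were at least as wide and 7 of them, or 8.43%, lacked FLAG. Of these 7, 2 lay under an H3K27me3 interval that also met FLAG elsewhere, as the Pdx1 interval did.

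Cdx2 had the widest EZH2 and FLAG intervals of the locus. The EZH2 interval at chr5:148106201-148131199 was 24999 bp wide, ranking 16 of 902 in the list and 3 of 77 on chromosome 5. The FLAG interval inside it (chr5:148110801-148129799) was 18999 bp wide, ranking 7 of 438 and likewise 3 of 45 on the chromosome. The position of Cdx2 near 148.11 Mb lay 3.8 kb inside the EZH2 interval and just left of the FLAG interval, a distance smaller than the rounding of the gene's position. EZH2 reached 4600 bp beyond FLAG on the left, towards Pdx1, and 1400 bp on the right. This difference of 3200 bp between the sides was reached or exceeded in 36 of 397 cases outside the locus in which 1 EZH2 and 1 FLAG interval overlapped only each other, whose median difference was 800 bp. At Gsx1 the difference was 1000 bp, which 166 of the 397 cases reached. These differences in bp were not scaled to interval width, and the Cdx2 EZH2 interval was among the widest. A narrower interval leaves less room for such a difference.

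**Figure D1:**
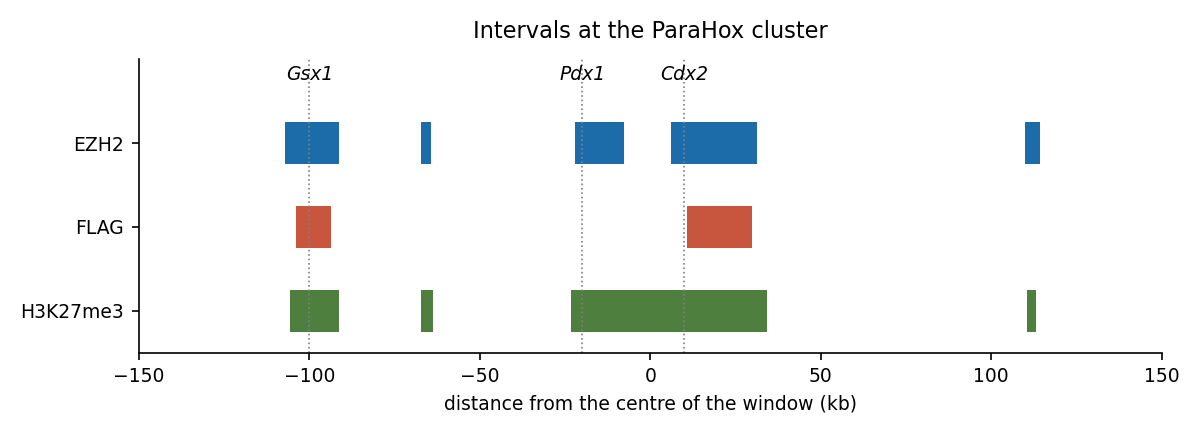
Intervals of the 3 lists at the ParaHox cluster, drawn to scale against the distance from the centre of the window in kb. Bars are intervals and dotted lines are gene positions given to the nearest 10 kb. A single H3K27me3 bar of 57399 bp spans the Pdx1 and Cdx2 EZH2 bars, and FLAG bars are present at Gsx1 and Cdx2.

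FLAG was present at 2 of the 5 EZH2 intervals of the locus (40%, exact Clopper-Pearson 95% interval 5.27 to 85.3%), beside 45.5% of all 902 EZH2 intervals. The intervals with FLAG were those of Gsx1 and Cdx2, 15999 and 24999 bp wide, and those without were that of Pdx1 and 2 narrow ones of 2999 and 4199 bp. At narrow widths FLAG was rare throughout the list. None of the 178 other EZH2 intervals at most 2999 bp wide overlapped FLAG, and 9 of 339 at most 4199 bp wide did (2.65%). Of the 3 EZH2 intervals of the locus wider than 10 kb, that of Pdx1 was the only one without FLAG.

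**Figure D2:**
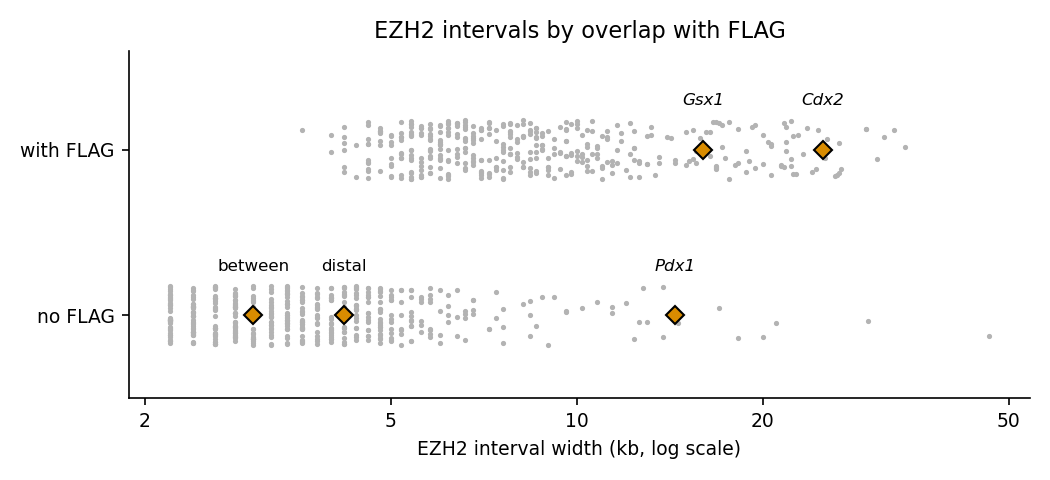
Width of every EZH2 interval in kb on a log axis, in 2 rows by whether it overlapped a FLAG interval. Grey points are intervals elsewhere, spread vertically at random, and diamonds are the 5 at the ParaHox cluster, with "between" and "distal" for those at no member gene. The Pdx1 diamond (14399 bp) lies in the sparse wide end of the row without FLAG.

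Pdx1 and Cdx2 lay under a single H3K27me3 interval. It ran from 148076801 to 148134199 on chromosome 5 and was 57399 bp wide, ranking 16 of 1126 in the list and 7 of 143 on the chromosome. It held both EZH2 intervals whole and reached 1200 bp beyond the Pdx1 interval on the left and 3000 bp beyond the Cdx2 interval on the right. Between them, 13801 bp without an EZH2 interval lay within the H3K27me3 interval. EZH2 covered 68.6% of this H3K27me3 interval and FLAG 33.1%.

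The methylated gap between Pdx1 and Cdx2 was long among gaps of its kind. In the whole list, 43 H3K27me3 intervals lay over 2 or more EZH2 intervals and spanned 52 gaps between neighbouring EZH2 intervals. The gap ranked 10 of 52, the median of the other 51 was 3801 bp and the longest was 38001 bp. Of the other 51 gaps, 24 had FLAG at exactly 1 of the 2 EZH2 intervals beside them, as here. FLAG was at both in 9 and at neither in 18, beside FLAG at 45.5% of all EZH2 intervals. Some gaps had an EZH2 interval in common. How often the overall share alone would give each arrangement was not computed. The lists do not say how neighbouring enrichment was joined into an interval. The smallest gap left between H3K27me3 intervals was 2801 bp, and 8 of 1105 such gaps were no longer than 13801 bp. Whether joining contributed to the single interval was not tested.

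**Figure D3:**
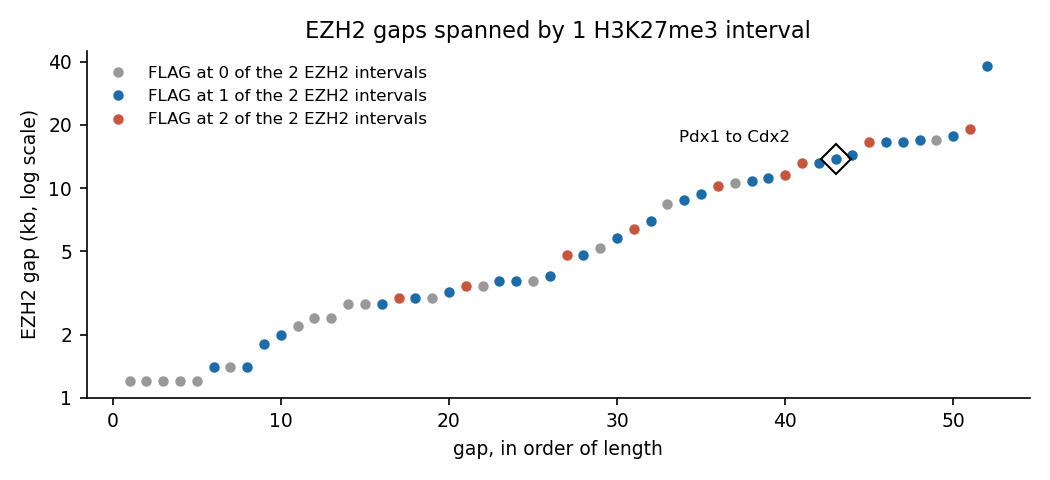
Length in kb, on a log axis, of the 52 gaps between neighbouring EZH2 intervals that 1 H3K27me3 interval spans, in order of length. Colours give how many of the EZH2 intervals beside the gap overlapped FLAG, and the open diamond is the 13801 bp gap between Pdx1 and Cdx2.

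The remaining EZH2 intervals of the locus lay at none of the 3 gene positions. One was between Gsx1 and Pdx1 (chr5:148032801-148035799, 2999 bp), where H3K27me3 began at the same base and ended 600 bp further on, making an interval of 3599 bp. The other was distal to Cdx2 (chr5:148210001-148214199, 4199 bp), where H3K27me3 (chr5:148210401-148212999, 2599 bp) lay inside it by 400 bp on the left and 1200 bp on the right. In the RefSeq gene order, Pdx1 follows Gsx1 with no protein-coding gene between them. Urad and then Flt3, a receptor tyrosine kinase of blood progenitors, follow Cdx2. The distal interval was not assigned to either. Neither interval had FLAG.

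The 11 intervals formed 4 sites separated by 24001, 40401 and 75801 bp. Each site had both EZH2 and H3K27me3, as did 803 sites elsewhere in the lists. Relative to EZH2, H3K27me3 covered 0.90 times as many bp at the Gsx1 site, 1.20 times at the narrow site between Gsx1 and Pdx1, 1.46 times at the Pdx1 and Cdx2 site and 0.62 times at the distal site. The median of the other sites was 0.91 (interquartile range 0.76 to 1.00). The Gsx1 site thus lay close to the median. The Pdx1 and Cdx2 site ranked 46 of 807 by this ratio, 5 by EZH2 coverage (39398 bp) and 6 by H3K27me3 coverage. It held 2 EZH2 intervals, and the gap between them counted as H3K27me3 but not as EZH2, which raises the ratio. Sites elsewhere with 2 or more EZH2 intervals had ratios from 0.95 to 4.33, so the site lay within the range of sites of its kind.

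**Figure D4:**
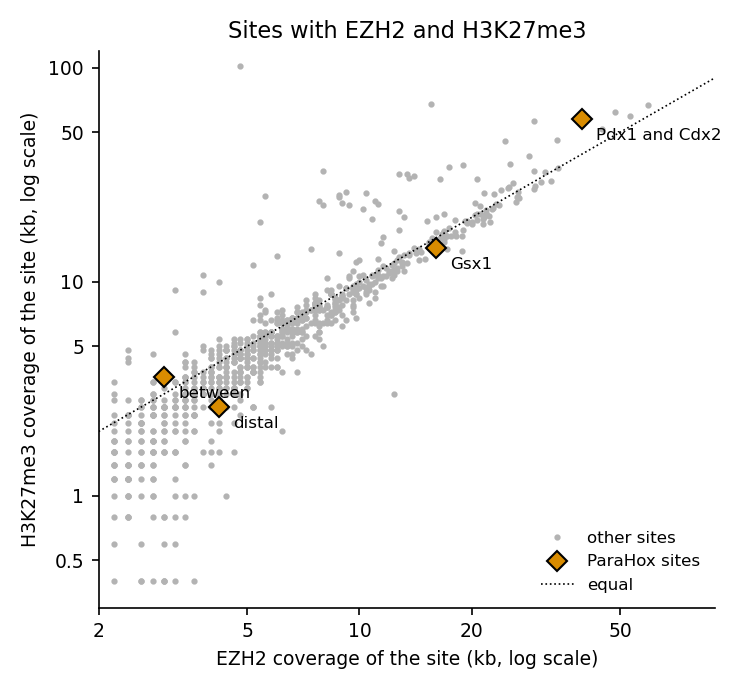
EZH2 coverage (horizontal) and H3K27me3 coverage (vertical) of each of 807 sites with both signals, in kb on log axes, with the line of equal coverage dotted. Diamonds are the 4 ParaHox sites. The Pdx1 and Cdx2 site lies above the line, at 39398 bp of EZH2 and 57399 bp of H3K27me3, and the Gsx1 site lies just below it.

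In total EZH2 covered 62595 bp of the 300 kb window, FLAG 29198 bp and H3K27me3 77996 bp. With the genome divided into windows of this length, placed so that the locus was 1 of them, 1015 windows held an interval. The ParaHox window ranked 1 of these by EZH2 coverage, 1 by FLAG coverage and 13 by H3K27me3 coverage. Its 5 EZH2 intervals were exceeded in 1 window, on chromosome 15, with 6. A window on chromosome X also held 5 EZH2 intervals, with 2 FLAG and 4 H3K27me3 intervals, the same counts as the ParaHox window. The grid favours a locus centred in its window. When windows were instead started at every interval of the lists, an alternative chosen after seeing the data, the highest EZH2 coverage away from the locus was 59194 bp, on chromosome 15, while for FLAG 33396 bp on chromosome 19 exceeded the ParaHox value.

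Most bp of the H3K27me3 and EZH2 intervals of the locus lay under both signals. All 4 H3K27me3 intervals overlapped EZH2 (100%, 39.8 to 100%), beside 71.7% of all H3K27me3 intervals, and 76.2% of their bp lay under EZH2, beside 58.1% in the whole list. Conversely, all 5 EZH2 intervals overlapped H3K27me3, beside 95.2% of all EZH2 intervals. Of their bp, 94.9% lay under H3K27me3, beside 86.5% in the whole list. Both FLAG intervals overlapped EZH2, beside 96.6% of all FLAG intervals, and lay wholly within it. The locus was chosen with its intervals known, so these shares are a description. Whether they differ from those of the whole lists was not tested, and the intervals are few.

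The flanks on chromosome 5 held H3K27me3 intervals that mostly lacked EZH2. Within 5 Mb on either side there were 19 H3K27me3 intervals covering 397581 bp and 4 EZH2 intervals covering 14996 bp, and no FLAG interval. Of the 19, 4 overlapped EZH2 (21.1%, 6.05 to 45.6%), and 2.61% of their bp lay under EZH2. This low share by bp rose to 8.94% with flanks of 10 Mb and fell to 1.21% with flanks of 2 Mb. On the left 2 of 13 intervals overlapped EZH2 and on the right 2 of 6. The 4 that did were 4799, 2599, 4799 and 1199 bp wide, so none of the wide flanking intervals had EZH2. The flanks had been named for this lack when the locus was chosen, so the contrast with the locus is a description.

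Of the flanking H3K27me3 intervals, 2 were wider than any in the ParaHox cluster. The 3 widest on the left were chr5:146473801-146576999 (103199 bp), chr5:146316601-146416999 (100399 bp) and chr5:146600601-146637199 (36599 bp). The 3 widest on the right were chr5:148827601-148848199 (20599 bp), chr5:148886601-148903399 (16799 bp) and chr5:148950401-148961199 (10799 bp). These 6 intervals had neither EZH2 nor FLAG. The 57399 bp interval over Pdx1 and Cdx2 was narrower than the first 2 of them and wider than the other 4, and had both.

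**Figure D5:**
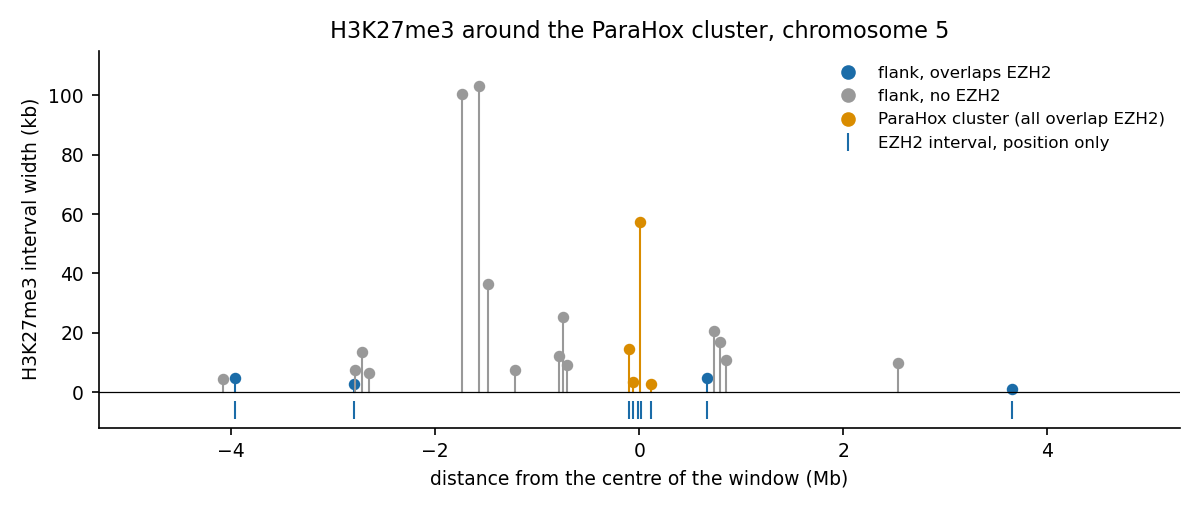
Width in kb of each H3K27me3 interval within 5 Mb of the ParaHox window, against the distance of its middle from the centre of the window in Mb. Colours separate the 4 intervals of the cluster from flanking intervals with and without EZH2, and blue ticks below 0 mark EZH2 intervals. The 2 flanking intervals above 100 kb lie to the left and have no EZH2.

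No interval lay near the borders of the window, and all 11 lay wholly inside it. The nearest H3K27me3 interval on the left (chr5:147392201-147401399, 9199 bp) was 593 kb from the H3K27me3 interval of Gsx1 and had no EZH2. On the right the nearest H3K27me3 interval (chr5:148766001-148770799, 4799 bp) was 553 kb from the distal H3K27me3 interval and overlapped the nearest EZH2 interval (chr5:148766601-148770999, 4399 bp). EZH2 was next found on the left at chr5:145305001-145310799 (5799 bp), 2.68 Mb from the EZH2 interval of Gsx1. FLAG was next found on the left at chr5:140385601-140387199 (1599 bp), 7.61 Mb from the FLAG interval of Gsx1. The Cdx2 FLAG interval was the last of the chromosome in its list.

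Elsewhere on chromosome 5 the shares differed between its parts. Past 100 Mb, with the ParaHox intervals left out, 31 of 91 H3K27me3 intervals overlapped EZH2 (34.1%, 24.5 to 44.7%) and 12.5% of their bp lay under it. Below 100 Mb, 35 of 48 did (72.9%, 58.2 to 84.7%), with 71.5% of bp. The distal part had been named for H3K27me3 without EZH2 when the locus was chosen, so this contrast is a description. The ParaHox share of bp, 76.2%, was nearer to that of the proximal part than to that of the distal part, which holds the cluster. The EZH2 intervals of the distal part overlapped FLAG at 19 of 34 (55.9%) and those of the proximal part at 21 of 38 (55.3%). The 34 include the 4 EZH2 intervals of the 5 Mb flanks, 2399 to 5799 bp wide, of which 0 overlapped FLAG (exact upper bound 60.2%). So few intervals, themselves part of the 34, were not compared with either share. Neighbouring intervals are not independent, and the intervals given here cover counting error only.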

How the data were processed

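From a series of 15 libraries, 3 were used, 1 per antibody. Per the labels' protocols, chromatin was fixed with paraformaldehyde and cut to mono-nucleosomes with micrococcal nuclease before immunoprecipitation. The submitters' processing notes name Bowtie 1.0.0, deepTools and build mm9. The peak caller, thresholds and control libraries were not given in the sources used here. Each list deposited by the authors gives the start and end of each interval in bp on a 200 bp grid, with no score, and depth is unknown. Starts were converted to count from 1. Widths are end minus the deposited start.

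Overlap meant at least 1 shared bp, and sites were chains of overlapping intervals. Exact Clopper-Pearson 95% intervals were computed with scipy 1.17.1 and tables with pandas 2.3.3 in Python 3.11.15. Overlap functions were tested on made-up intervals. No test was made. The members, the named neighbours and the measures were chosen with earlier results of these data known. Every interval of the locus was named, with the nearest outside it and the 3 widest H3K27me3 intervals on each side within 5 Mb. Promoters of all 3 member genes and 6 neighbours were matched by symbol to RefSeq, GRCm38.p6. Alternatives were a window wider by 100 kb on each side, wholly contained intervals, other flanks, stricter or looser overlap, and lists without their narrowest intervals (widths at or below the lower quartile) in place of a stricter threshold.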

Additional observations from a re-analysis of the deposited data

How the results depend on the processing

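Counts and coverage of the 3 lists at the ParaHox cluster did not change with a window wider by 100 kb on each side or with wholly contained intervals. Without intervals up to the lower quartile of width (EZH2 3399 bp, FLAG 2399 bp, H3K27me3 1999 bp), the EZH2 interval between Gsx1 and Pdx1 was lost. EZH2 then had 4 intervals over 59596 bp, 3 of 4 H3K27me3 intervals overlapped EZH2, and 72.3% of H3K27me3 bp lay under it. The flank share by bp was 1.21% with flanks of 2 Mb, 8.94% with 10 Mb and 1.72% without the narrowest intervals, and by intervals it ranged from 9.09% to 30.4% over 5 alternatives. Windows were also started at every interval, with overlapping windows of higher coverage counted as 1 stretch. The cluster, kept in its own window, then ranked 1 by EZH2, 2 by FLAG and 12 by H3K27me3 coverage. These ranks count stretches, whereas those of the grid count windows. Whether narrow intervals are weaker is unknown without scores. No paired analysis was possible because each group has 1 library.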
